A study of Mus musculus with 9 samples.

Results

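Actin and tropomyosin are the backbone of the thin filament. The 9 genes described here encode the skeletal α-actin (*Acta1*), the cardiac α-actin (*Actc1*), the smooth muscle α-actin (*Acta2*), the cytoplasmic β- and γ-actin (*Actb*, *Actg1*) and the tropomyosins *Tpm1* to *Tpm4*. They were taken by name from a table of reads counted on 55471 Ensembl genes, and all 9 were found, each with at least 5528 counts in every mouse. The tissue was the gastrocnemius, a calf muscle, of C57BL/6 mice at postnatal day 0 to 1. The compared genotypes were *Shank3Δ11(−/−)* (KO1 to KO5), which carry a germline deletion of exon 11 of *Shank3* on both alleles, and *Shank3(+/+)* (WT1 to WT4). For the *Shank3Δ11(−/−)* mice the methods name heterozygous C57BL/6JRj matings as the origin, and for wild-type mice C57BL/6. No mouse was given a treatment. According to the study's discussion the deletion lowers the long SHANK3 isoforms while some isoforms are still made, so these mice are not without SHANK3.

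Actin monomers polymerise into filaments, and tropomyosin dimers lie end to end along them and set when myosin may bind. In striated muscle the sarcomere is built from α-actins and from the muscle products of *Tpm1*, *Tpm2* and *Tpm3*, while β- and γ-actin and *Tpm4* serve the cytoskeleton below the membrane and in all non-muscle cells. Cardiac α-actin is also the sarcomeric actin of embryonic skeletal muscle and gives way to skeletal α-actin around birth. *Tpm1* encodes the α-tropomyosin of fast fibres, *Tpm2* the β-tropomyosin and *Tpm3* the tropomyosin of slow fibres, but *Tpm1*, *Tpm2* and *Tpm3* also give cytoplasmic products by alternative promoters and exons, which counts per gene cannot separate.

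The actin genes can be told apart by their reads only where their sequences differ. The first 30 coding bases, from the start codon, are shown because the actins diverge most plainly in their amino ends. They were read from the GENCODE M21 transcripts, and capitals mark bases that differ from *Acta1* at the same distance from the start codon.

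Acta1: atgtgcgacgaagacgagaccaccgctctt

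Actc1: atgtgTgacgaCgaGgagaccaccgctTtG

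Acta2: atgtgTgaAgaGgaAgaCaGcacAgcCctG

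Actb: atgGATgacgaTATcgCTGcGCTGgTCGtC

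Actg1: atgGAAgaAgaaATcgCCGcACTcgTCAtt

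The coding sequence has 1134 bases in the 3 α-actins and 1128 in *Actb* and *Actg1*, and the capitals in *Actb* and *Actg1* include the shift that comes from this difference in length. Aligned from the stop codon, *Acta1* and *Actc1* were identical at 86.2% of bases and *Actb* and *Actg1* at 88.7%, and the remaining pairs of actins at 81.6% to 85.4%. The longest identical run was 29 bases between *Acta1* and *Actc1* and 62 bases between *Actb* and *Actg1*. Between an α-actin and *Actb* or *Actg1* it ranged from 26 bases (*Actc1* and *Actg1*) to 77 bases (*Acta1* and *Actb*). The run of 77 bases was the longest of all these actin pairs, so identical stretches also joined sarcomeric and cytoplasmic actins. Whether a fragment can be placed therefore differs among the genes. Of the different 50-base windows in the coding transcripts of *Actc1*, *Tpm1* and *Tpm2*, 0% recurred exactly in a transcript of another gene. This share was 2.02% for *Acta1*, 0.326% for *Acta2*, 12.1% for *Tpm4* and 12.2% for *Actb*. It was 40.0% for *Tpm3*, mainly in the retrogene *Tpm3-rs7*, and 45.6% for *Actg1*, mainly in pseudogenes. How long the reads were, and what was done with those that matched more than one place, is not stated in the labels or the study's methods, and the levels of *Actg1* and *Tpm3* are therefore the least certain of the 9.

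The deposited table had a total of 26444372 (KO5) to 40471957 (KO4) counts per mouse. The study left out KO2 and KO4 for insufficient reads. The deposited totals do not show such a shortage, with KO4 the highest of the 9 mice and KO2, at 28211941 counts, above KO5. The study's choice was kept, so KO1, KO3 and KO5 were compared with WT1 to WT4, and all comparisons were repeated with 9 mice. Levels are given in CPM, counts scaled to a common library size with the TMM factors of the 9 libraries. *Shank3* was at 25.7 to 38.5 CPM over the 9 mice, and a count over the whole gene does not check the exon deletion. *Xist* divided the mice as well, with 4 mice (WT3, WT4, KO3, KO5) above 100 CPM and the other 5 no higher than 3.04 CPM. The tissue carried its defining markers in every mouse. The summed level of 7 fetal and neonatal muscle genes, with *Myh8* and *Mylpf* at its head, was 33594 to 37720 CPM. The 5 heart markers summed to 143 to 305 CPM, with KO5 and KO3 the lowest of the 9 mice. Nearly all of it was *Myh6*, the α-myosin heavy chain, at 138 to 300 CPM, while *Tnni3* was at 1.66 to 4.02, *Ryr2* at 0.42 to 2.24, *Nppa* at 0.10 to 0.34 and *Myl7* at 0 to 0.20 CPM. In a bulk sample such as this, fewer cells of a type and less RNA per cell cannot be told apart.

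The sarcomeric genes dominated. The 5 actins took 2.28% to 2.94% of all counts of a mouse and the 4 tropomyosins 1.02% to 1.17%, with *Acta1* alone at 1.71% to 2.12%. Between genes, levels were compared as CPM per kilobase of exon. On this scale *Acta1* stood at 12267 ± 898 (SD over the 9 mice, both genotypes), followed by *Actc1* at 3119 ± 711 and *Tpm2* at 2079 ± 119. *Tpm1* had 657 ± 45.6 and *Actb* 449 ± 108, followed by *Acta2* at 179 ± 16.0. *Actg1* had 130 ± 13.7, *Tpm4* 121 ± 27.9 and *Tpm3* 64.0 ± 5.45. The neighbours *Actc1* and *Tpm2*, *Tpm1* and *Actb*, and *Actg1* and *Tpm4* overlapped in the range of the 9 mice, whereas every other step of this order separated all mice.

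The lower end of this order depends on the length that is used. Per kilobase of the median coding transcript, a length chosen after the data were seen, *Tpm3* rose from the last to the 6th place with 342 ± 29.1, beside *Actg1* at 339 ± 35.7 and *Acta2* at 276 ± 24.5. *Tpm4*, for which the annotation holds 1 coding transcript, was then the lowest with 125 ± 28.9. The top 5 genes kept their order on both scales. The median is taken over all annotated coding transcripts, incomplete ones included. It is 1031 bases for *Acta1*, 888 for *Actc1*, 930 for *Actb* and 1021 for *Actg1*, below their coding sequences of 1134 or 1128 bases. Levels of these actins are therefore too high on that scale, and their places beside the other genes are less certain.

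**Figure D1:**
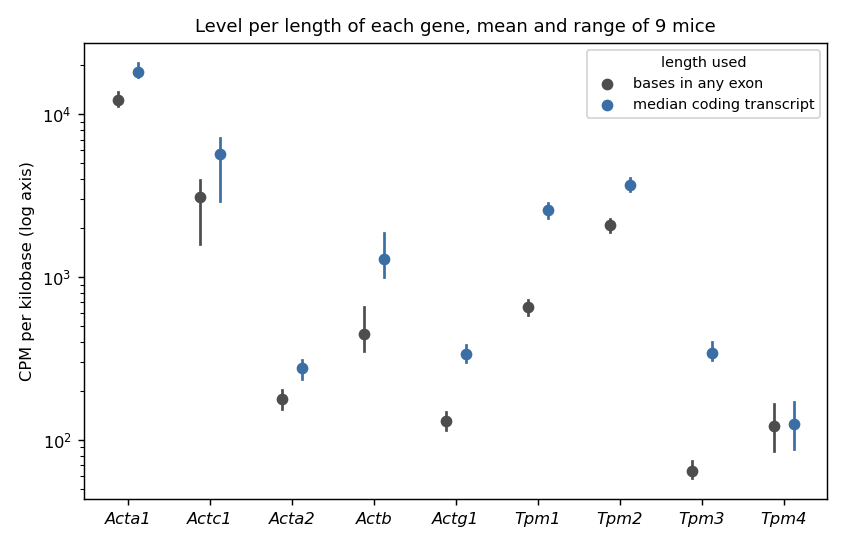
Level of each gene in CPM per kilobase on a log axis, with dots for the mean of the 9 mice and lines for the lowest and highest mouse. Dark dots divide by all exon bases (*Acta1* 12267, *Tpm3* 64.0) and blue dots by the median coding transcript, which moves *Tpm1* and *Tpm3* most. For *Acta1*, *Actc1*, *Actb* and *Actg1* the median transcript is shorter than the whole coding sequence.

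Skeletal α-actin, the main actin of mature muscle fibres, had the smallest ratio of highest to lowest mouse among the actins, 1.22 over the 9 mice, although within *Shank3(+/+)* its coefficient of variation (9.26%) was above those of *Acta2* (7.84%) and *Actb* (8.07%). *Acta1* was at 21090 CPM in KO1, 18791 in KO3 and 18056 in KO5, beside 18891 in KO2 and 18186 in KO4. The *Shank3(+/+)* mice had 17897, 18055, 17417 and 21201 CPM in WT1 to WT4. KO1 and WT4 were the highest of their genotypes and the others lay close together, so the genotypes overlapped. In the 7 mice the log2 fold change was 0.04 (standard error 0.13, p = 0.762 from edgeR's quasi-likelihood test, exact permutation test p = 0.514), with a 95% interval from -0.25 to 0.34 on the log2 scale.

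Cardiac α-actin varied the most of the actins, by a factor of 2.46 between the lowest and the highest mouse. *Actc1* was at 5435 CPM in KO1, 5890 in KO3 and 2604 in KO5, and at 4768 in KO2 and 4733 in KO4. The levels in WT1 to WT4 were 4447, 4922, 6395 and 6231 CPM. KO5 stood below every other mouse, and the other *Shank3Δ11(−/−)* mice lay within the *Shank3(+/+)* range. Between the genotypes the log2 fold change was -0.25 (standard error 0.26, edgeR p = 0.344, exact permutation test p = 0.514), and without KO5 it was 0.030. Among mice with high *Xist* the mean of KO3 and KO5 was 0.673 of that of WT3 and WT4. Among mice with low *Xist* (KO1, KO2 and KO4 against WT1 and WT2) the ratio was 1.06.

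Expressed as a share, *Actc1* made up 20.5% of the sarcomeric actin in KO1, 23.9% in KO3 and 12.6% in KO5. The share was 20.2% in KO2 and 20.7% in KO4. In WT1 to WT4 it was 19.9%, 21.4%, 26.9% and 22.7%. The share in KO5 lay apart from the other 8 mice, which spread over both genotypes. The difference of the means was -3.74 percentage points (exact permutation test, 2-sided, p = 0.400).

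Smooth muscle α-actin, the actin of vessel walls that is also made by immature muscle cells and activated fibroblasts, did not separate the genotypes. *Acta2* was at 365, 413 and 431 CPM in KO1, KO3 and KO5 and at 340 and 370 CPM in KO2 and KO4. WT1 to WT4 had 370, 398, 446 and 415 CPM. The log2 fold change was -0.02 (standard error 0.11, edgeR p = 0.835, exact permutation test p = 0.857), and the 95% interval of -0.27 to 0.23 was narrow beside that of *Actc1*. *Acta2* was 1.29% to 1.88% of the actin counts. Smooth muscle and pericyte markers, as a list of 7, summed to 587 to 722 CPM, with KO5 the highest for both the list and this share.

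The cytoplasmic actins differed in how far the mice spread. β-actin, which builds the cortical cytoskeleton and is often used as a reference gene, was at 955, 1404 and 1517 CPM in KO1, KO3 and KO5. For KO2 and KO4 the *Actb* level was 1168 and 1746 CPM. It was 937, 1008, 966 and 1122 CPM in WT1 to WT4. Thus 4 of the 5 *Shank3Δ11(−/−)* mice were above every *Shank3(+/+)* mouse, and KO1 lay among them. The spread was also unequal, with a coefficient of variation of 22.6% in the 5 *Shank3Δ11(−/−)* mice and 8.07% in *Shank3(+/+)*.

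In the 7 mice *Actb* did not pass the test, with a log2 fold change of 0.35 (standard error 0.16, edgeR p = 0.0535, exact permutation test p = 0.200). The 95% interval reached from -0.01 to 0.71. With all 9 mice the log2 fold change was 0.43 (standard error 0.16) and the edgeR p was 0.0166, while the exact permutation test gave p = 0.0794. This p did not withstand adjustment over all genes (FDR = 1.00). Of all 21735 genes tested in 9 mice, 2.03% had an edgeR p below 0.05 and 2.33% had at least 4 *Shank3Δ11(−/−)* mice above every *Shank3(+/+)* mouse. The 7-mouse value depended on single mice. Without KO1 the log2 fold change was 0.53 and *Actb* was below 0.05 in edgeR, but so were 968 genes in place of 453. Without KO5 it was 0.21, without KO3 0.29 and without WT4 0.41, and of these *Actb* was below 0.05 without WT4. DESeq2 put *Actb* below 0.05 in the 7 mice, as it did for 1.8% of genes, while limma-voom, with 1.95% of genes below 0.05, did not. In 9 mice *Actb* was below 0.05 by both, beside 2.03% and 1.97% of genes, and was not among the 0.0322% that DESeq2 called there with an FDR below 25%. The mean of *Actb* in *Shank3Δ11(−/−)* was 1.40 times that in *Shank3(+/+)* among the mice with high *Xist* and 1.33 times among those with low *Xist*. The low group held KO1, KO2 and KO4, of which only KO1 was in the main comparison. KO1, at 955 CPM, lay between WT1 (937 CPM) and WT2 (1008 CPM), so the ratio of 1.33 came from KO2 and KO4.

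γ-actin, the other cytoplasmic form, was at 341, 392 and 306 CPM in KO1, KO3 and KO5. KO2 and KO4 had 316 and 352 CPM. The *Shank3(+/+)* mice had 317, 310, 387 and 393 CPM. *Actg1* overlapped between the genotypes, with KO5 just below the lowest *Shank3(+/+)* mouse (log2 fold change -0.03, standard error 0.13, edgeR FDR = 1.00). There were hence 2.80, 3.69, 3.59, 4.96 and 4.95 *Actb* counts for each *Actg1* count in KO1 to KO5, and 2.96, 3.25, 2.50 and 2.86 in WT1 to WT4.

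As a result of these levels, β- and γ-actin together made up a nearly constant share of the actin counts in *Shank3(+/+)*, 5.23%, 5.34%, 5.28% and 5.16% in WT1 to WT4. In *Shank3Δ11(−/−)* the cytoplasmic share was 4.60% in KO1, 5.82% in KO2, 6.68% in KO3, 8.26% in KO4 and 7.96% in KO5. No *Shank3Δ11(−/−)* mouse fell inside the *Shank3(+/+)* range, since KO1 was below it and the other 4 were above it. The means of the 7 mice were 6.41% ± 1.69 (SD, n = 3) and 5.25% ± 0.0760 (SD, n = 4), a difference of 1.16 percentage points that was smaller than the spread in *Shank3Δ11(−/−)* (exact permutation test, 2-sided, p = 0.314). In 9 mice the difference was 1.41 points (exact permutation test p = 0.143). Single mice moved this difference. Leaving KO1 out of the 9 mice raised it to 1.93 points (exact permutation test p = 0.0286), and leaving out KO4 or KO5 lowered it to 1.01 and 1.09 points (exact permutation test p = 0.286 for both). Of the 7 mice, it was 2.07 points without KO1 and 0.39 points without KO5 (exact permutation test p = 0.0667 and 0.600). The sarcomeric share, *Acta1* and *Actc1* of the 5 actins, was the counterpart, with 94.1%, 92.8%, 91.8%, 90.3% and 90.2% in KO1 to KO5 and 93.0% to 93.4% in *Shank3(+/+)*.

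The γ-actin share of the cytoplasmic actin was 26.3%, 21.3%, 21.8%, 16.8% and 16.8% in KO1 to KO5. In WT1 to WT4 it was 25.3%, 23.5%, 28.6% and 25.9%. For this share KO1 lay within the *Shank3(+/+)* range and the other 4 below it. The difference was -4.19 percentage points in the 7 mice (exact permutation test p = 0.200) and -5.23 in the 9 mice (exact permutation test p = 0.0556). It was -6.52 points without KO1 and -1.77 without KO5 in the 7 mice, and -6.66 without KO1 in the 9 mice (exact permutation test p = 0.0667, 0.467 and 0.0286).

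Several cell type markers stood apart in some of the mice with high *Actb*. KO4, with the highest *Actb*, also had the highest summed level of 4 fibroblast markers (14152 CPM, 5867 to 10985 in the other mice) and of 3 cartilage markers (200 CPM, 34.9 to 67.9 in the others). Its sums of 4 endothelial markers (752 CPM, 531 to 689) and of 4 macrophage markers (155 CPM, 99.8 to 145) were the highest as well. Not every marker followed its sum. *Col1a1* alone gave 12974 CPM of the fibroblast sum, and *Dcn* and *Lum* were also highest in KO4, but *Pdgfra* (121 CPM) was within the range of the other mice (90.1 to 150). Of the macrophage markers, *Adgre1* and *Mrc1* were highest in KO4, and *Csf1r* (32.8 CPM) and *Cd68* (9.93 CPM) were not. The mitochondrial share of counts was also highest in KO4, at 7.88%, followed by 6.54% in WT2 and 6.52% in KO5, with 3.81% to 5.42% in the other 6 mice. KO5 had 283 CPM of 4 adipocyte markers, against 25.8 in KO1 and at most 6.96 in the other 7 mice. Its cartilage sum (34.9 CPM) was the lowest of the 9 mice. The fibroblast and endothelial sums of KO5 (7716 and 658 CPM) were in the range of *Shank3(+/+)*. Its macrophage sum (144 CPM) was just above that range (108 to 143). KO3, with *Actb* at 1404 CPM, was in the range of *Shank3(+/+)* for fibroblast, cartilage and endothelial markers except for an endothelial sum of 689 CPM against 569 to 668. KO2, with *Actb* at 1168 CPM, had the lowest endothelial sum of the 9 mice (531 CPM). Its fibroblast and cartilage sums (7549 and 42.9 CPM) were in the range of *Shank3(+/+)*. The part of these markers in the level of *Actb* was not tested.

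**Figure D2:**
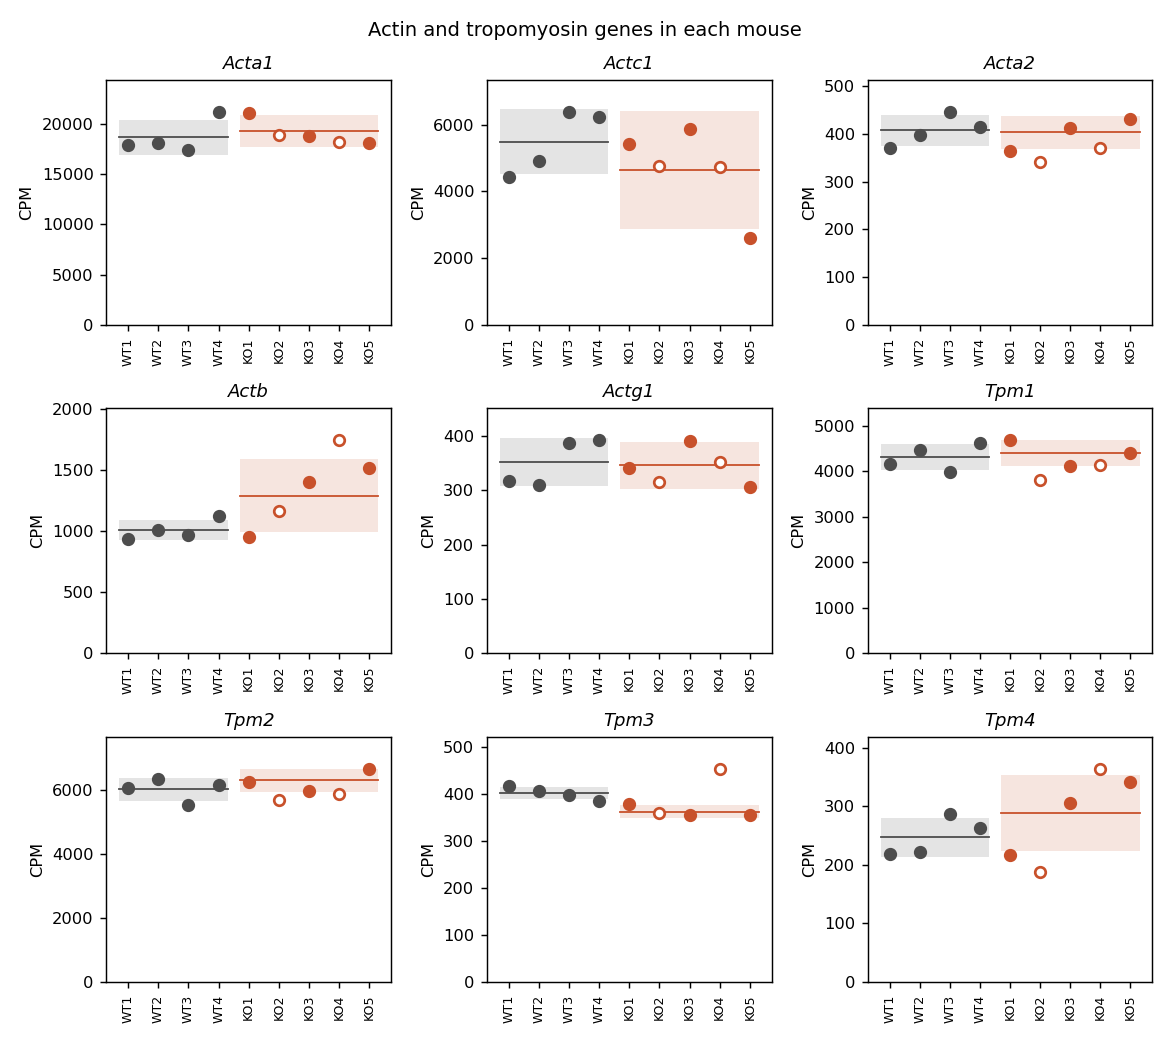
CPM of each gene in each mouse, with *Shank3(+/+)* in grey and *Shank3Δ11(−/−)* in orange. Filled dots are the 7 mice of the main comparison and open dots KO2 and KO4, lines and bands give mean and SD of the filled dots, and *Tpm3* is the gene whose filled dots do not overlap (354 to 378 CPM against 386 to 417).

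β-tropomyosin, which is abundant in fetal muscle, was the highest of the tropomyosins. *Tpm2* was at 6226, 5968 and 6653 CPM in KO1, KO3 and KO5, with 5679 and 5874 CPM in KO2 and KO4. WT1 to WT4 had 6032, 6344, 5510 and 6134 CPM. KO5 was the highest mouse and WT3 the lowest, and the genotypes overlapped. *Tpm2* had a log2 fold change of 0.06 (standard error 0.12, edgeR p = 0.639, exact permutation test p = 0.429).

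The α-tropomyosin gene had a similar evenness. *Tpm1* was at 4680, 4107 and 4397 CPM in KO1, KO3 and KO5 and at 3796 and 4135 CPM in KO2 and KO4. In WT1 to WT4 the gene was at 4155, 4458, 3985 and 4612 CPM. Its log2 fold change was 0.02 in the 7 mice (standard error 0.12, edgeR p = 0.857, exact permutation test p = 0.686) and -0.03 in the 9 mice, both well within the error. The ratio of *Tpm2* to *Tpm1* counts was 1.33 to 1.51 over all mice.

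The slow-fibre tropomyosin was the gene whose genotypes did not overlap in the 7 mice. *Tpm3* was at 378, 354 and 355 CPM in KO1, KO3 and KO5, and WT1 to WT4 had 417, 406, 398 and 386 CPM. Each of the 3 *Shank3Δ11(−/−)* mice was below every *Shank3(+/+)* mouse, which held for 1.30% of the 21809 genes tested in the 7 mice. Genes that separated in the other direction are not in this share and were not counted. The log2 fold change was -0.16 (standard error 0.10) and was not past the threshold in edgeR (p = 0.128, FDR = 1.00), while the exact permutation test gave p = 0.0286, the smallest possible with 3 against 4 mice. KO2 lay below the *Shank3(+/+)* mice as well, at 359 CPM, but KO4 had the highest level of all mice, 454 CPM. With all 9 mice the log2 fold change was -0.08 (standard error 0.10, edgeR p = 0.415, exact permutation test p = 0.317).

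The retrogene *Tpm3-rs7*, which shares an identical run of 628 bases with *Tpm3*, had 100, 102 and 97.0 CPM in KO1, KO3 and KO5. It had 106, 104, 114 and 105 CPM in WT1 to WT4, and 100 and 123 CPM in KO2 and KO4. KO1, KO2, KO3 and KO5 were the 4 lowest mice and KO4 the highest for both genes, but the order within the 4 lowest and among the *Shank3(+/+)* mice differed, and how reads were divided between them was not tested. As a share of *Tpm1*, *Tpm2* and *Tpm3* counts, *Tpm3* made up 3.35%, 3.40% and 3.11% in KO1, KO3 and KO5. The share was 3.93%, 3.63%, 4.02% and 3.46% in WT1 to WT4. This difference of -0.48 points (exact permutation test, 2-sided, p = 0.0571) became -0.19 points with KO2 at 3.65% and KO4 at 4.34% (exact permutation test p = 0.500).

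*Tpm4*, the gene of a cytoskeletal tropomyosin without a sarcomeric product in mouse, ranged more widely. It was at 216, 306 and 342 CPM in KO1, KO3 and KO5 and at 188 and 364 CPM in KO2 and KO4. WT1 to WT4 had 218, 221, 287 and 262 CPM. In *Shank3Δ11(−/−)* 3 mice were above and 2 below every *Shank3(+/+)* mouse. The log2 fold change was 0.21 (standard error 0.17, edgeR p = 0.232, exact permutation test p = 0.400). *Tpm4* made up 1.87% to 3.36% of the tropomyosin counts in *Shank3Δ11(−/−)* and 1.94% to 2.82% in *Shank3(+/+)*, and the means of the 7 mice differed by 0.28 points (exact permutation test p = 0.457).

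**Figure D3:**
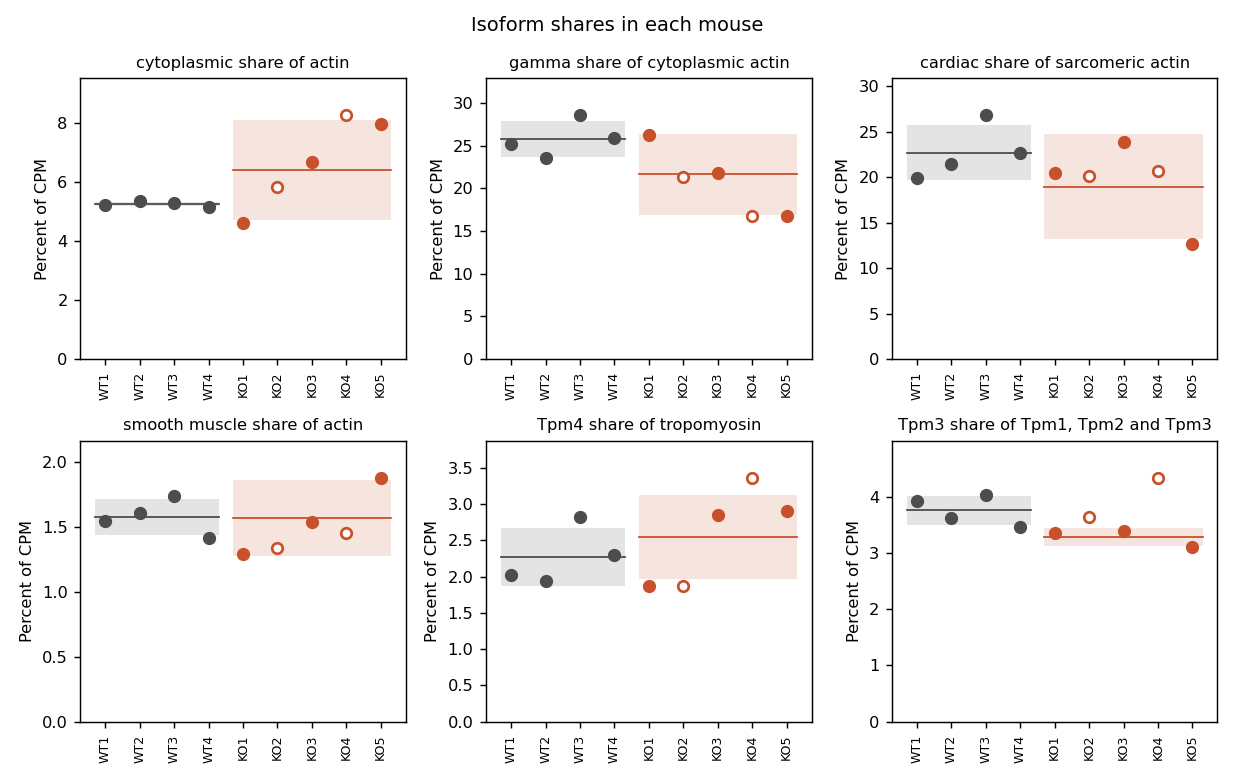
Isoform shares in percent of CPM in each mouse, with grey for *Shank3(+/+)*, orange for *Shank3Δ11(−/−)*, open dots for KO2 and KO4, and lines and bands for mean and SD of the filled dots. The cytoplasmic share of actin lies between 5.16% and 5.34% in *Shank3(+/+)* and between 4.60% and 8.26% in *Shank3Δ11(−/−)*.

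Over all genes, 0 of the 9 had an edgeR p below 0.05 in the 7 mice, where 2.08% of the 21809 genes tested did. By the study's criterion, p below 0.05 with an FDR below 25%, 0 of the 9 and 0 genes in all were called in edgeR. The study itself used limma and did report differentially expressed genes by this criterion, whereas limma-voom called 0 genes here. DESeq2 called 6 genes by this criterion, 0.0275% of those tested, and *Actb* was its only member at an unadjusted p below 0.05. The log2 fold changes of the 9 lay between -0.25 and 0.35 with a median of 0.02, and that of all genes tested was -0.01. The 95% intervals show which sizes the data leave possible. They ended between 0.05 (*Tpm3*) and 0.71 (*Actb*) at their upper and between -0.82 (*Actc1*) and -0.01 (*Actb*) at their lower bound.

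**Figure D4:**
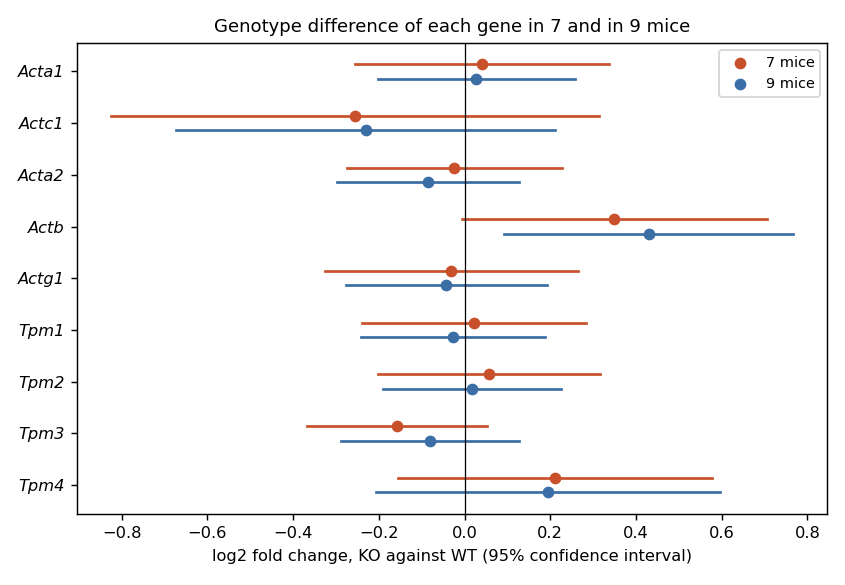
Log2 fold change of each gene, *Shank3Δ11(−/−)* against *Shank3(+/+)*, with the 95% confidence interval from edgeR in the 7 mice (orange) and in all 9 (blue). The interval of *Actb* reaches -0.01 in the 7 mice and lies above 0 in the 9, and all other intervals include 0.

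Correlations over the 9 mice describe which of the genes varied together, with both genotypes pooled. None of the 5 pairs selected for a test had a permutation p below 0.05. *Acta1* with *Actc1* had Pearson's r = 0.34 (permutation p = 0.373) and Spearman's rho = 0.20 (p = 0.613). *Actb* with *Actg1* had r = 0.05 (permutation p = 0.886) and rho = -0.02 (p = 0.982). *Acta1* with *Actb* had r = -0.16 (permutation p = 0.697) and rho = 0.23 (p = 0.552), and *Tpm2* with *Tpm3* had r = -0.22 (permutation p = 0.576) and rho = -0.17 (p = 0.678). *Acta2* had r = 0.44 (permutation p = 0.243) and rho = 0.48 (p = 0.194) with the smooth muscle myosin *Myh11*. The adjusted p over the 5 pairs was 0.871 for 4 of them and 0.886 for *Actb* with *Actg1*. Without the 2 mice farthest from the median of the first gene, r was -0.012, 0.42, 0.41, 0.15 and 0.32 in the same order, none with p below 0.05.

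Of all 36 pairs among the 9 genes, given as a description, r was highest for the cytoskeletal *Actb* and *Tpm4* (0.76, and 0.64 to 0.90 when each mouse was left out). *Tpm1* and *Tpm2* followed with r = 0.75 and *Actc1* and *Actg1* with r = 0.75. The lowest was *Actc1* and *Tpm2* (r = -0.63), which weakened to -0.19 without KO5.

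Genes outside the families with the most similar profile were sought among 10863 genes with a mean of at least 10 CPM, as a description over 9 mice. A search over so many genes and so few mice picks high values, and r was 0.92 to 0.99 for the genes named. A high r here is therefore no sign of a shared function. The cardiac actin was most like *Myh3*, the embryonic myosin heavy chain (r = 0.98). *Myh3* was at 4298, 4395, 4900, 4224 and 2093 CPM in KO1 to KO5 and at 4169, 4450, 5781 and 5668 CPM in WT1 to WT4. KO5 was the lowest mouse for both, and r without it was 0.91. In the same mouse the perinatal myosin *Myh8* was the highest of all 9, at 19496 CPM against 13555 to 17125 in the others. The next gene after *Myh3* was *Spock2* (r = 0.96), which encodes an extracellular proteoglycan.

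The β-actin profile was most like *Kdelr2*, a receptor that returns proteins to the endoplasmic reticulum (r = 0.97), and *Ralb*, a small GTPase (r = 0.96). *Kdelr2* was at 92.9, 99.1, 122, 133 and 116 CPM in KO1 to KO5 and at 84.3, 88.3, 82.8 and 97.0 CPM in WT1 to WT4. *Actg1* was closest to *Herpud1* (r = 0.98), a gene of the endoplasmic reticulum stress response, and to the glycolytic *Pgk1* (r = 0.97). *Tpm4* was closest to *C1qtnf9* (r = 0.99) and *Glrx* (r = 0.98). *Tpm2* was closest to *Mylf-ps* (r = 0.95), a pseudogene named after a myosin light chain, and to *Wfdc1* (r = 0.93). *Tpm3* was closest to *Enpp1* (r = 0.94) and *Bicc1* (r = 0.92), both highest in KO4. *Acta1* had *Ppp1r27* (r = 0.93) and *Htra2* (r = 0.92), *Acta2* had *Mtg1* (r = 0.97) and *Atxn7l1* (r = 0.95), and *Tpm1* had *Gm49673* (r = 0.98) and *Rnaset2a* (r = 0.98).

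**Figure D5:**
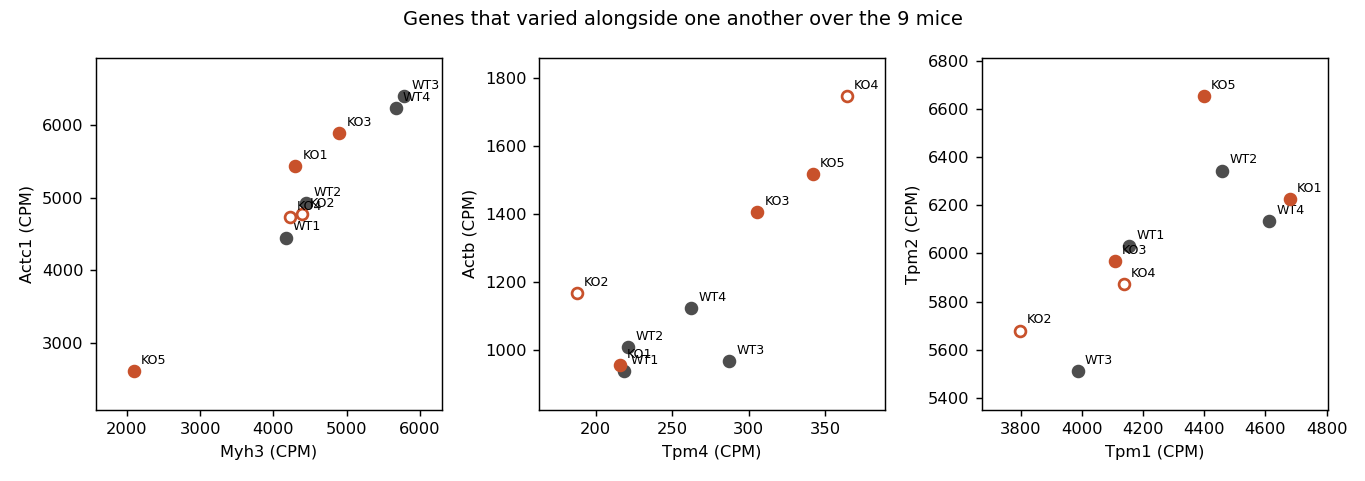
CPM of *Actc1* against *Myh3*, *Actb* against *Tpm4* and *Tpm2* against *Tpm1*, with a dot per mouse (grey *Shank3(+/+)*, orange *Shank3Δ11(−/−)*, open KO2 and KO4) and axes that do not start at 0. KO5 has the lowest *Actc1* and *Myh3* (2604 and 2093 CPM), and KO3, KO4 and KO5 have the highest *Actb* and *Tpm4*.

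The partners of actin and tropomyosin were read from 4 lists of 84 genes, all of them tested. In the 7 mice 42 were higher and 42 lower in *Shank3Δ11(−/−)*, 1 with an unadjusted p below 0.05 was higher and 3 were lower, and 0 were called. In all genes tested 1.16% were higher and 0.917% lower at this p. This is 4 of 84 genes beside 2.08% of all genes, and all 4 belonged to the list of thin filament assembly and regulation. That list held 26 genes with a median log2 fold change of -0.03. *Actn3*, the α-actinin that anchors actin at the Z-disc of fast fibres, was at 447, 415 and 715 CPM in KO1, KO3 and KO5 and at 305, 218, 374 and 460 CPM in WT1 to WT4. Its log2 fold change was 0.62 (standard error 0.26, edgeR p = 0.0413, exact permutation test p = 0.143).

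The 3 that were lower are troponins of slow and cardiac type. *Tnni1*, the slow troponin I on the same list, did not have an edgeR p below 0.05. *Tnnc1*, the calcium-binding troponin C of slow and cardiac muscle, was at 344, 368 and 239 CPM in KO1, KO3 and KO5 and at 370, 465, 376 and 485 CPM in WT1 to WT4 (log2 fold change -0.43, edgeR p = 0.0261, exact permutation test p = 0.0571). *Tnnt2*, the cardiac troponin T that is also made in fetal muscle, was at 357, 396 and 317 CPM in these *Shank3Δ11(−/−)* mice and at 399 to 477 CPM in *Shank3(+/+)* (log2 fold change -0.28, edgeR p = 0.0358, exact permutation test p = 0.0286). *Tnnt1*, the slow troponin T, was at 617, 765 and 500 CPM against 703 to 852 CPM (log2 fold change -0.34, edgeR p = 0.0457, exact permutation test p = 0.114). KO5 was the lowest of the 7 mice for all 3 and the highest for *Actn3*. Leaving out KO5, or WT2, took the 4 pathway genes at p below 0.05 to 0, and leaving out WT4 to 1. In 9 mice *Tnnt1* was no longer past the threshold (log2 fold change -0.24, edgeR p = 0.124, exact permutation test p = 0.159), with KO4 the highest of all mice at 855 CPM and KO2 at 610 CPM. *Tnnc1* (log2 fold change -0.36, edgeR p = 0.0263, exact permutation test p = 0.0635), *Tnnt2* (-0.25, p = 0.0189 and 0.0159) and *Actn3* (0.50, p = 0.0455 and 0.103) stayed below 0.05 in edgeR. All 4 had an FDR of 1.00 in both comparisons. The heart marker *Myh6* was lower along with these troponins, at 254, 140 and 138 CPM in KO1, KO3 and KO5 and at 216 to 300 CPM in *Shank3(+/+)* (log2 fold change -0.64, edgeR p = 0.0141, exact permutation test p = 0.0857). With KO2 at 204 and KO4 at 297 CPM it was not past the threshold in 9 mice (log2 fold change -0.41, edgeR p = 0.0826, exact permutation test p = 0.151), and its part in the troponin values was not tested. The other heart markers, all at low levels, did not share 1 direction in the 7 mice. *Tnni3* had a log2 fold change of -0.38 (exact permutation test p = 0.257) and *Ryr2* of 0.58 (exact permutation test p = 0.343). *Nppa* and *Myl7*, with too few counts for the fit, had means of 0.12 and 0.08 CPM in *Shank3Δ11(−/−)* against 0.20 and 0.07 in *Shank3(+/+)*. The most abundant partners were the fast troponins *Tnnt3* (log2 fold change 0.10) and *Tnni2* (0.06), neither past the threshold.

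The other 3 lists held 0 genes at an edgeR p below 0.05. Of 22 genes of actin monomer turnover, 16 were higher and 6 lower, and their median was 0.04 on the log2 scale. Its most abundant genes were *Cfl2*, the muscle cofilin that severs filaments, at 0.09 and the monomer-binding *Tmsb4x* at 0.15 on the log2 scale (edgeR p = 0.477 and 0.292, exact permutation test p = 0.400 and 0.314). Of 16 genes of the chaperonin CCT and prefoldin, which fold new actin, the median was -0.03 with 6 higher and 10 lower, and *Tcp1* and *Cct2* were at -0.03 and 0.01. Of 20 genes of the SRF and MRTF axis, the transcription factors that switch on many actin genes, the median was -0.05 with 9 higher and 11 lower. *Fhl1* and *Flna*, the most abundant of them, were at -0.20 and 0.025 (edgeR p = 0.213 and 0.835, exact permutation test p = 0.229 and 0.771).

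SRF binds the CArG box. Stretches that match its consensus exactly are shown, because 3 of the actin genes searched carry such a match close to their start. RefSeq promoters on GRCm38.p6 were at hand for 8 of the 9 genes, and the 250 bases before each start were searched on both strands. The gene without one was *Actb*, so whether it has any of these motifs was not examined. The palindromic consensus of the CArG box was found in *Acta1*, *Actc1* and *Actg1*, and in 1.47% of all 32851 promoters of this length. Only exact matches were counted. Near matches with a differing base, such as ccctatatgg and ccttgtttgg in *Acta2*, were left out, so genes without an exact match may still carry a CArG box. Each stretch is 30 bases, 5′ to 3′ on the strand of the gene, with the box in capitals.

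Acta1: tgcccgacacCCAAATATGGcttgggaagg

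Actc1: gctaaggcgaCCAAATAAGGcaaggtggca

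Actg1: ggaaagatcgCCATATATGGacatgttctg

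These lie on the minus strand at chr8:123894829-123894858, chr2:114052903-114052932 and chr11:120348566-120348595. The first letter of the box is 73, 47 and 90 bases before the RefSeq start. In GENCODE M21 the *Actc1* stretch is intronic, inside the bounds of *Actc1* itself, since a second transcript begins further upstream. The other stretches lie outside the exons of any annotated gene, and that of *Acta1* falls within the long antisense locus *Gm20388*. The E-box CAGCTG was found in *Acta1*, *Acta2*, *Tpm2* and *Tpm3* (13.0% of all promoters), CATTCC in *Acta1*, *Acta2* and *Tpm1* (12.6%), and TATAAA in *Acta1* (12.4%). The MEF2 box, in 1.69% of all promoters, was in none of the 8. The log2 fold changes of the 3 genes with an exact CArG match were 0.04, -0.25 and -0.03 for *Acta1*, *Actc1* and *Actg1*. A match of letters is not evidence of binding in these mice.

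By position on mm10 (GENCODE M21), *Acta1* (ENSMUSG00000031972) spans bases 123891769 to 123894751 and *Tpm4* (ENSMUSG00000031799) bases 72134975 to 72153142 of chromosome 8. *Actc1* (ENSMUSG00000068614) lies on chromosome 2 from 114047282 to 114053548, *Tpm3* (ENSMUSG00000027940) on chromosome 3 from 90072649 to 90100902 and *Tpm2* (ENSMUSG00000028464) on chromosome 4 from 43514711 to 43523765. *Actb* (ENSMUSG00000029580) is on chromosome 5 from 142903115 to 142906754, *Tpm1* (ENSMUSG00000032366) on chromosome 9 from 67022590 to 67049406, *Actg1* (ENSMUSG00000062825) on chromosome 11 from 120345690 to 120348542 and *Acta2* (ENSMUSG00000035783) on chromosome 19 from 34241090 to 34255590. The 2 genes on chromosome 8 are not neighbours. Antisense genes overlap *Acta1*, *Actc1* and *Tpm4*, the highest of them *Gm20388* at up to 48.6 CPM, and the labels and methods do not say whether counting used the strand. Inside *Actg1* lie *Gm23419* (up to 13.5 CPM) and *Mir6935* (up to 2.14 CPM) on the same strand. Near copies had low counts, with *Actg-ps1* at 28.7 to 44.1 CPM, the enteric smooth muscle actin *Actg2* at 9.06 to 16.9 CPM, *Actbl2* at most 0.15 CPM and *Tpm3-rs2* at 0 counts in every mouse.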

How the data were processed

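RNA of the gastrocnemius of 9 mice was sequenced by a service company, 1 library per mouse. The deposited counts are raw read numbers for each Ensembl gene as the authors made them, mapped with HISAT2 to mm10 (GRCm38), restricted to concordant reads and counted with featureCounts of Subread, without normalization. The annotation release, strandedness and use of multi-mapped reads are stated in neither the labels nor the study's methods. Names and positions for 55230 of 55471 IDs came from GENCODE M21. Genes were filtered with filterByExpr (minimum count 10, minimum total 15), scaled by TMM and tested 2-sided in edgeR 4.0.16 (R 4.3.3) with robust quasi-likelihood fits of genotype over 21809 genes in 7 mice and 21735 in 9, with Benjamini-Hochberg adjustment. A member or gene was counted at p below 0.05, and called if its FDR was below 25% as well. The exact permutation tests, 2-sided on mean log2 CPM (prior count 2) or on percent shares, reach p = 0.0286 at best for 3 against 4 mice and 0.00794 for 5 against 4. Correlations used log2 CPM, with all permutations of the mice for p. The fits were tested on simulated data.

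Named genes were the 9 members, the 2 highest genes of each pathway list and up to 3 per direction with p below 0.05, the 2 genes most correlated with each member, and near copies. The members, lists and tests were chosen with earlier results of these data known. *Myh6* and *Myh8* were named after their values were seen. Alternatives were all 9 mice, no filter, RLE and library-total scaling, DESeq2 1.42.0, limma-voom 3.58.1, the replicate number as a block, Y-linked expression as a covariate and each mouse left out. Added after seeing the data were DESeq2 and limma-voom in 9 mice, shares per median coding transcript and the split by *Xist* at 100 CPM. Replicates differed by far more than counting noise, so all counted as separate mice. Figures were drawn with matplotlib 3.10.9.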

Additional observations from a re-analysis of the deposited data

Results flagged for a closer look

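In 32 groups of 4 or 5 mice, the highest or lowest mouse of 3 lay farther from its neighbour, relative to the range of the group, than Dixon's 95% critical value allows. Chance alone gives about 1 such group in 20. *Acta1* was at 21090 CPM in KO1, while KO2 to KO5 lay between 18056 and 18891 CPM. *Acta1* was at 21201 CPM in WT4, while WT1 to WT3 lay between 17417 and 18055 CPM. *Tpm3* was at 454 CPM in KO4, a mouse that the study left out, while the other *Shank3Δ11(−/−)* mice lay between 354 and 378 CPM.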

How the results depend on the processing

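No alternative gave a member an FDR below 25%, and the lowest FDR of a member was 0.998. *Actb* stayed higher, *Tpm3* lower and *Tpm4* higher in *Shank3Δ11(−/−)* in all 28 alternatives, with log2 fold changes of 0.21 to 0.53, -0.19 to -0.06 and 0.03 to 0.38. The number of members at p below 0.05 was 0 and became 1, *Actb* each time, with all 9 mice, without the filter, with RLE, with DESeq2, and in 9 mice with the block, the Y-linked covariate, DESeq2 or limma-voom. Leaving out each mouse gave 0 to 2 members in the 7-mouse comparison (*Actb* and *Tpm4* without KO1, *Actb* without WT4) and 1 in each of the 9-mouse comparisons.

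The count of all genes at p below 0.05 was 453. It was 972 without the filter and 844 with the replicate block in 7 mice, and 224 (without KO5) to 968 (without KO1) with a mouse left out of 7 and 300 to 745 out of 9. Genes called at an FDR below 25%, 0 at first, were 1 without the filter, 6 with DESeq2, 9 with the block in 7 mice, 2 with the block in 9, 1 with the Y-linked covariate in 7, 7 with DESeq2 in 9, and 0 to 15 and 0 to 7 with a mouse left out of 7 or 9. The 4 pathway genes became 2 with the block in 7 mice and 0 to 6 and 0 to 3 with a mouse left out of 7 or 9 (0 without KO5 or WT2 of 7 and without WT2 of 9).

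The replicate numbers do not pair the mice by the labels, and correlations of deviations between KO and WT mice of the same number were 0.42, 0.18, 0.43 and 0.02. With the block, log2 fold changes turned for *Actc1* (0.081) and *Actg1* (0.058) in 7 mice and for *Tpm1* (-0.044) and *Tpm2* (-0.015) in 9. The differences in cytoplasmic, sarcomeric, cardiac, γ-actin, *Tpm4* and *Tpm3* share with the block in 9 mice were 1.09, -0.92, -1.43, -4.28, 0.22 and -0.08 points.

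The small *Tpm1* fold change also turned in all 9 mice (-0.027), with the Y-linked covariate (-0.026), DESeq2 (-0.027) and limma-voom (-0.028) there. Leaving out a mouse of 7 or 9 gave ranges that cross 0 of -0.024 to 0.12 for *Acta1*, -0.46 to 0.030 for *Actc1*, -0.13 to 0.044 for *Acta2*, -0.13 to 0.047 for *Actg1*, -0.066 to 0.068 for *Tpm1* and -0.021 to 0.093 for *Tpm2*. Of the shares, leaving out a mouse gave 0.39 to 2.07 and 1.01 to 1.93 (cytoplasmic), -2.20 to -0.22 and -1.90 to -0.92 (sarcomeric), -6.18 to -0.55 and -4.25 to -1.43 (cardiac), -6.52 to -1.77 and -6.66 to -4.27 (γ-actin) points in 7 and 9 mice. Without KO1 in 9 mice the cytoplasmic, sarcomeric and γ-actin shares passed the threshold. Correlations turned for *Actb* with *Actg1* (-0.12) under library totals, and without 2 mice for *Acta1* with *Actc1* (-0.012), *Acta1* with *Actb* (0.41) and *Tpm2* with *Tpm3* (0.15). The causes were not tested. Each gene had at least 5528 counts in a mouse, so counting error is small beside the spread between mice.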
